A study of Caenorhabditis elegans with 4 samples.

Results

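The genes described here encode 10 RNA-binding proteins that Caenorhabditis elegans loads into its oocytes and embryos: oma-1, oma-2, mex-1, mex-3, mex-5, mex-6, pos-1, pie-1, spn-4 and puf-5. They were taken by name and WormBase identifier from the 20535 genes of each deposited file, and all 10 were found and tested. RNA of whole young adults was sequenced in 2 strains with 2 libraries each. The control strain VL749 carried wwIs24, an integrated reporter of acdh-1 promoter activity, with green fluorescent protein as its readout and with unc-119(ed3) named beside it in the genotype. The mutant strain VL1080 carried the same wwIs24 reporter together with mccc-1(ww4), an allele of a subunit gene of methylcrotonyl-CoA carboxylase, an enzyme of leucine breakdown. What ww4 changes in the gene is not stated in the labels. All animals of both strains were fed the bacterium Comamonas aquatica DA1877 on nematode growth medium once an L1 arrest of 20 h had synchronized them, were kept at 20 °C and were harvested at 70 h after hatching, with at least 200 animals per library. The labels call the libraries biological replicates but do not describe separate cultures, so the p-values below rest on a spread that may be partly technical.

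In the worm germ line, transcription stops as oocytes mature and the early embryo transcribes little, so that the fate of its cells is set by mRNAs and proteins already in the egg. RNA-binding proteins bind the untranslated ends of those mRNAs and decide when and in which cell each is translated or destroyed. Of the proteins considered here, OMA-1, OMA-2, MEX-1, MEX-5, MEX-6, POS-1 and PIE-1 carry CCCH zinc fingers, MEX-3 carries KH domains, SPN-4 an RNA recognition motif and PUF-5 Pumilio repeats.

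Levels are given in FPKM, the fragments of a gene relative to transcript length and to all mapped fragments of the library, so that levels of different genes can be compared per length. Differences between strains were tested on log2(FPKM + 1) over 13091 genes with limma, mutant minus control, with Benjamini-Hochberg adjustment over all of them and a threshold of 0.05. The 10 genes were at a higher level in both mutant libraries than in either control library, without exception, and this separation was found for 28.9% of all tested genes in that direction. The log2 fold changes ran from 0.38 to 0.67 with a median of 0.54, against a median of 0.05 over all tested genes. Only spn-4 and mex-6 passed the adjusted threshold as higher in the mutant, where 1.06% of all tested genes did, and none of the 10 was called lower, against 7.3% of all tested genes. At an unadjusted p under 0.05 all 10 were higher, against 8.16% of all tested genes. The members were chosen with earlier results of these data known, so these counts describe the genes and are no test of the group. In whole animals, a change in the number of oocytes or embryos and a change in RNA per cell cannot be told apart.

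**Figure D1:**
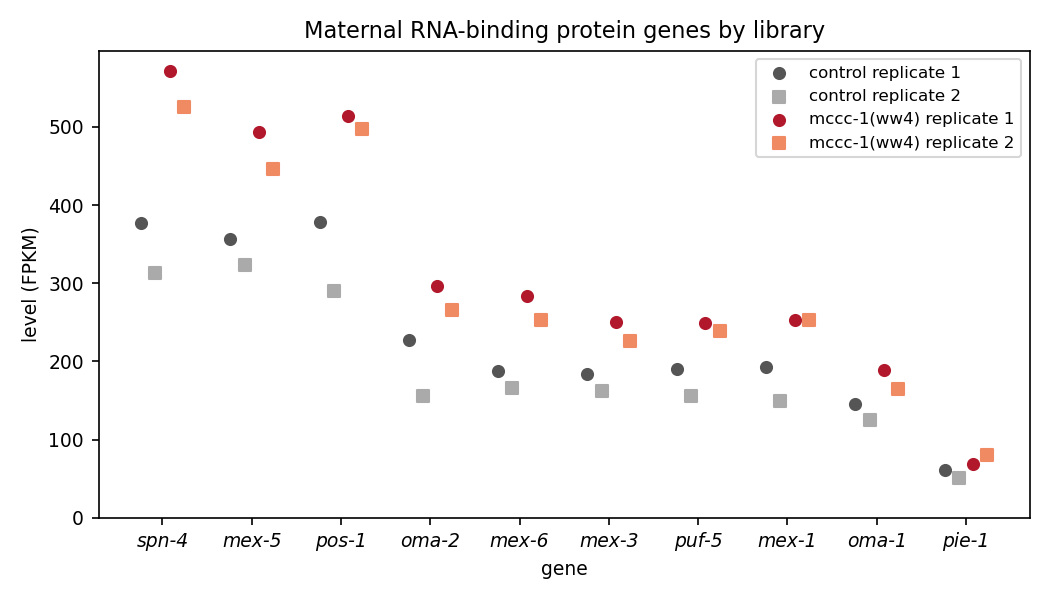
Level in FPKM (vertical axis, linear from 0) of each gene (horizontal axis, ordered by control mean) in the 4 libraries, with circles for replicate 1 and squares for replicate 2. For each gene both mutant points lie above both control points, and control replicate 1 lies above control replicate 2.

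The 10 genes were among the more abundant transcripts of the animal. Per length, spn-4, mex-5 and pos-1 held the upper 3 ranks in each of the 4 libraries, oma-1 was always 9th and pie-1 always 10th. Control means were 344.5 FPKM for spn-4, 340 for mex-5 and 334 for pos-1, and the standard deviations of these 3, between 23.1 and 62.9 FPKM, exceeded the distances between them. In the mutant libraries the values of these 3 did not overlap, with spn-4 highest, pos-1 next and mex-5 below it. oma-2, mex-6, mex-3, puf-5 and mex-1 followed with control means between 171 and 192 FPKM, closely spaced relative to their standard deviations of 15.3 to 50.4 FPKM. oma-1 had a control mean of 135.5 FPKM, with both control values below those of these 5 genes. pie-1 had one of 56.3 FPKM and did not overlap any other member in any library. Of all tested genes, 1.94% had a higher mean over the libraries than spn-4 and 14.5% a higher mean than pie-1.

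Summed over the 10 genes, the level was 2300 and 1893 FPKM in the control libraries and 3168 and 2951 FPKM in the mutant libraries. The mix within this sum shifted by at most 1.49 percentage points for any gene, the value for spn-4, which made up 16.4% and 16.5% of the sum in the controls and 18.0% and 17.8% in the mutants. The shares of spn-4 did not overlap between the strains. oma-1 made up 6.34% and 6.61% in the controls and 5.97% and 5.58% in the mutants, also without overlap. Neither did mex-3 (8.02% and 8.6% against 7.9% and 7.65%) nor puf-5 (8.25% and 8.22% against 7.87% and 8.1%) overlap. The shares of mex-5, at 15.5% and 17.1% against 15.6% and 15.1%, overlapped, as did those of oma-2, mex-1, mex-6, pos-1 and pie-1. With 2 libraries a strain such separation is a description only.

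OMA-1 and OMA-2 act redundantly in oocyte maturation, repressing the translation of mRNAs in growing oocytes until the proteins are destroyed in the early embryo. oma-1 (WBGene00003864; chromosome IV, 8888976 to 8890999, forward strand, 6 exons, 407 codons in the WBcel235 annotation) was at 145.84 and 125.1 FPKM in control replicates 1 and 2 and at 189.29 and 164.69 FPKM in mutant replicates 1 and 2. The groups did not overlap, but the lower mutant library was only 1.13 times the higher control library. Its log2 fold change, the smallest of the 10, came to 0.38 (SE 0.14, 95% interval 0.05 to 0.72, limma adjusted p = 0.17). oma-2 (WBGene00003865; chromosome V, 8029439 to 8031214, forward strand, 6 exons, 393 codons) was at 227.19 and 155.94 FPKM in the controls and at 296.93 and 265.31 FPKM in the mutants. Its control libraries lay 1.46-fold apart, the widest replicate spread of any member, and its mutant libraries 1.12-fold apart. The log2 fold change of 0.57 had the widest interval (SE 0.19, 0.11 to 1.04, limma adjusted p = 0.142). It was 0.84 without control replicate 1, where it passed (limma adjusted p = 0.0415), and 0.30 without control replicate 2 (0.574). Without mutant replicates 1 and 2 in turn it was 0.49 and 0.65, short of the threshold (limma adjusted p = 0.448 and 0.239).

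MEX-5 and MEX-6 are close paralogues that gather in the anterior of the zygote and keep the germline proteins MEX-1, POS-1 and PIE-1 to the posterior. mex-5 (WBGene00003230; chromosome IV, 13353723 to 13356104, forward strand, 5 exons, 468 codons) was at 356.12 and 323.45 FPKM in the controls and at 492.97 and 446.47 FPKM in the mutants. Replicates of a strain lay 1.10-fold apart in both strains, while the means differed 1.38-fold. With a log2 fold change of 0.47 (SE 0.13, limma adjusted p = 0.0925) it missed the threshold. mex-6 (WBGene00003231; chromosome II, 9524174 to 9526359, forward strand, 7 exons, 467 codons) was at 188.29 and 166.23 FPKM in the controls and at 283.4 and 252.65 FPKM in the mutants. The groups were well separated, with the lower mutant library 1.34 times the higher control library. mex-6 rose 1.51-fold, with a log2 fold change of 0.59 (SE 0.13, 0.28 to 0.91, limma adjusted p = 0.043). Leaving out any of the 4 libraries ended this call: the limma adjusted p was 0.0784 without control replicate 1, 0.273 without control replicate 2, 0.209 without mutant replicate 1 and 0.0896 without mutant replicate 2, with log2 fold changes of 0.68, 0.50, 0.51 and 0.68.

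Within a library the ratio of paralogues does not depend on how libraries are scaled to each other. oma-1 stood at 0.642 and 0.802 times oma-2 in control replicates 1 and 2 and at 0.637 and 0.621 times in mutant replicates 1 and 2. Control replicate 2 stood apart here, and the other control library was close to both mutants. The mean log2 ratio was -0.48 ± 0.227 in the control and -0.67 ± 0.027 in the mutant (SD, n = 2 each), a difference of -0.19 that is smaller than the control spread. It was -0.35 without control replicate 1 and -0.03 without control replicate 2. mex-5 stood at 1.89 and 1.95 times mex-6 in the controls and at 1.74 and 1.77 times in the mutants. These groups did not overlap, and the difference of -0.13 in mean log2 ratio, 0.94 ± 0.029 against 0.81 ± 0.016 (SD, n = 2 each), exceeded the spread within either strain. With 2 libraries a group the exact permutation test, two-sided, cannot go below 0.333, the value it gave for both pairs (p = 0.333), so it does not bear on either difference.

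**Figure D2:**
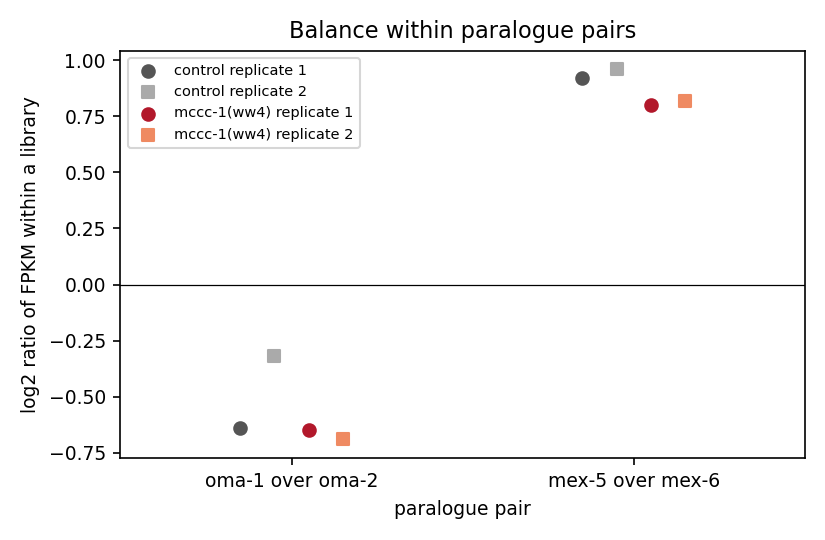
log2 ratio of FPKM within each library (vertical axis) for the paralogue pairs (horizontal axis), 1 point a library, with circles for replicate 1 and squares for replicate 2. For oma-1 over oma-2 control replicate 2, at -0.32, stands apart from the other 3 libraries, and for mex-5 over mex-6 both mutant points, at 0.80 and 0.82, lie below both control points, at 0.92 and 0.96.

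SPN-4, POS-1, MEX-1 and PIE-1 act in the posterior and in the germline precursor cells of the embryo. spn-4 (WBGene00004984; chromosome V, 6783187 to 6784903, reverse strand, 5 exons, 351 codons), which encodes a regulator of maternal mRNAs and of spindle orientation, was at 376.5 and 312.49 FPKM in the controls and at 571.35 and 525.88 FPKM in the mutants. The gap between the strains was the widest of the 10 genes, with the lower mutant library 1.40 times the higher control library. spn-4 rose 1.59-fold, with a log2 fold change of 0.67 (SE 0.15, 0.32 to 1.03, limma adjusted p = 0.0403). Its call also needed all 4 libraries: the limma adjusted p was 0.0548 without control replicate 1, 0.27 without control replicate 2, 0.205 without mutant replicate 1 and 0.111 without mutant replicate 2, with log2 fold changes of 0.81, 0.54, 0.62 and 0.73. Like that of mex-6, it was also lost with median-of-ratios scaling (limma adjusted p = 0.0774, and 0.0646 for mex-6) and with a minimum of 0.1 FPKM in place of 1 FPKM (0.106, and 0.104 for mex-6).

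pos-1 (WBGene00004078; chromosome V, 8414086 to 8415254, forward strand, 2 exons, 264 codons), whose protein represses glp-1 translation in the posterior, was at 378.78 and 289.78 FPKM in the controls and at 514.25 and 497.87 FPKM in the mutants. Its control libraries differed 1.31-fold and its mutant libraries 1.03-fold. Its log2 fold change of 0.61 (SE 0.16, limma adjusted p = 0.0744) was next in size to that of spn-4. mex-1 (WBGene00003228; chromosome II, 11968637 to 11972330, forward strand), needed for germline fate and the partition of P granules, the RNA and protein bodies of germ cells, was at 192.51 and 150.01 FPKM in the controls and at 252.39 and 252.61 FPKM in the mutants. The mutant libraries were nearly equal here, and the spread lay in the controls (0.57, SE 0.15, limma adjusted p = 0.0734).

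pie-1 (WBGene00004027; chromosome III, 12426893 to 12429195, forward strand), whose protein holds transcription off in germline precursor cells, was at 60.99 and 51.56 FPKM in the controls and at 68.33 and 80.47 FPKM in the mutants. It departed from the other members in its replicates, with mutant replicate 1 at 0.849 times mutant replicate 2. It did not pass (log2 fold change 0.40, SE 0.15, limma adjusted p = 0.184). Its exons share 24 nt, or 2.15% of its exonic length, with those of snr-6 on the other strand, a more abundant gene that was at 186.09, 157.57, 167.44 and 225.1 FPKM in the same libraries. snr-6 was likewise highest in mutant replicate 2. Whether the counting used strand is not stated in the labels, and the part of this overlap in the pie-1 values was not tested. The exonic overlaps of spn-4 with ZC404.15 (8 nt) and of mex-1 with acbp-6 (18 nt) involve genes at no more than 0.29 and 11.78 FPKM in any library.

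MEX-3 represses pal-1 in the anterior of the embryo, and PUF-5 represses mRNAs in late oocytes. mex-3 (WBGene00003229; chromosome I, 127285 to 134270, forward strand) was at 184.45 and 162.81 FPKM in the controls and at 250.28 and 225.72 FPKM in the mutants (log2 fold change 0.45, SE 0.13, limma adjusted p = 0.0933). puf-5 (WBGene00004241; chromosome II, 8575541 to 8577787, forward strand) was at 189.81 and 155.5 FPKM in the controls and at 249.3 and 238.97 FPKM in the mutants (0.50, SE 0.14, limma adjusted p = 0.0835). Both genes kept the strains apart by more than their replicate spread without passing. Of the 10 genes, puf-5 followed the average profile of the group most closely, with a root mean square distance of 0.012 on the log2 scale over the 4 libraries, and pie-1 least closely, at 0.128.

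**Figure D3:**
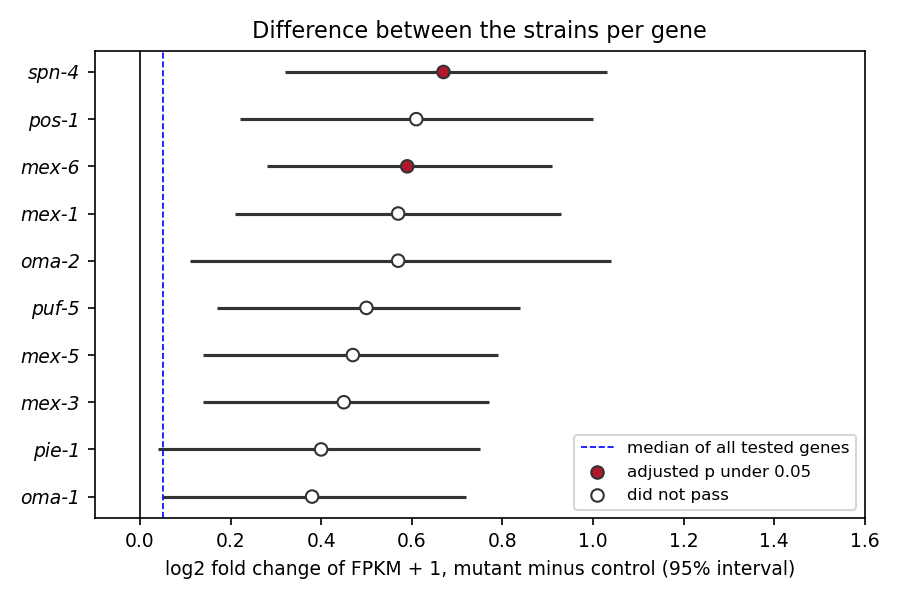
Log2 fold change of FPKM + 1, mutant minus control (horizontal axis), for each gene (vertical axis), with points at the limma estimate and bars for its 95% interval. Filled points mark spn-4 and mex-6, which passed, open points the other 8, and the dashed line the median of all tested genes at 0.05.

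The intervals of the per-gene fold changes all overlapped. The highest lower bound among the 10 intervals was 0.32 (spn-4) and the lowest upper bound 0.72 (oma-1), so a single value within this range lies in all 10. Each interval rests on the replicate spread of the gene as moderated by limma with the spread of other genes. Their overlap is no test of a difference between members, whose replicates varied together. Control replicate 1 was above control replicate 2 for all 10 genes, by a median of 0.25 on the log2(FPKM + 1) scale, where 39.7% of all tested genes had this order and the median difference over all tested genes was -0.07. Mutant replicate 1 was above mutant replicate 2 for 8 of the 10, all but mex-1 and pie-1, by a median of 0.13, and 58.0% of all tested genes had this order. These medians of 0.25 and 0.13 stand beside the median of 0.54 between the strains. Without control replicate 2 the median log2 fold change of the 10 genes was 0.38, and without control replicate 1 it was 0.67. Counting error was small beside this: by the spacing of low values, 1 FPKM of a 1 kb transcript was worth about 11.4 to 11.8 fragments in each library, so the members rested on about 673 fragments (pie-1, control replicate 2) to 11099 fragments (mex-5, mutant replicate 1), and their largest counting error was 3.85%.

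The wider circle of these genes was described by 5 lists. Of the 9 other matched PUF genes, all tested, puf-7 rose and 8 did not pass (median log2 fold change 0.03). The share of all tested genes that rose was 1.06%. At an unadjusted p under 0.05, 4 of the 9 were higher and puf-12 was lower, against 8.16% and 13.5% of all tested genes. Both mutant libraries were above both controls for 4 of the 9 and below both for 3, against 28.9% and 23.2% of all tested genes. puf-7 was at 49.6 and 41.68 FPKM in the controls and at 74.85 and 68.86 FPKM in the mutants (0.65, SE 0.14, limma adjusted p = 0.0396), a call that ended when any of the 4 libraries was left out (limma adjusted p = 0.052 without control replicate 1, 0.238 without control replicate 2, 0.209 without mutant replicate 1 and 0.109 without mutant replicate 2). Its close copy puf-6 was at 46.71 and 37.9 FPKM in the controls and at 58.98 and 58.37 FPKM in the mutants (0.47, limma adjusted p = 0.116). Reads of the copies may have been split between them, and their sum was 96.31 and 79.58 FPKM in the controls and 133.83 and 127.23 FPKM in the mutants. The other PUF genes with both mutant libraries above both controls were puf-3 and puf-11 (0.38 and 0.47, limma adjusted p = 0.141 and 0.0744). Those with both below were puf-12, puf-9 and fbf-1 (-0.39, -0.17 and -0.23, limma adjusted p = 0.153, 0.62 and 0.559). fbf-2 and puf-8 had values of -0.39 and 0.03 (limma adjusted p = 0.479 and 0.934) and overlapped between the strains.

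Of 4 tested genes among 6 other CCCH zinc finger genes none passed by limma (median 0.14). Of the 4, 1 was higher at an unadjusted p under 0.05, against 8.16% of all tested genes. moe-3, a relative of oma-1 and oma-2, was at 4.32 and 5.42 FPKM in the controls and at 3.1 and 3.65 FPKM in the mutants, far below them in both strains (log2 fold change -0.42, limma adjusted p = 0.393). ccch-5 and ccch-3 had log2 fold changes of 0.35 and 0.32. Among 21 other RNA regulators of germline and oocyte none passed either (median 0.17). Both mutant libraries were above both controls for 11 of the 21, against 28.9% of all tested genes. Of the 21, 2 were higher at an unadjusted p under 0.05, against 8.16% of all tested genes. These 2 were gld-3 and lin-41, with the same log2 fold change of 0.50. gld-3, a KH protein gene and partner of the poly(A) polymerase GLD-2, was at 106.69 and 103.83 FPKM in the controls and at 164.9 and 134.55 FPKM in the mutants (limma adjusted p = 0.0849). lin-41, whose protein works with the OMA proteins in oocytes, was at 70.89 and 61.55 FPKM in the controls and at 105.76 and 83.77 FPKM in the mutants (limma adjusted p = 0.116). car-1, a P granule gene, had a log2 fold change of 0.27.

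The next list held 23 genes of kinases, their partners and ubiquitin ligases of the oocyte-to-embryo switch and of polarity. Of these, 1 rose, against 1.06% of all tested genes, and 22 did not pass (median 0.25). Of the 23, 9 were higher at an unadjusted p under 0.05, against 8.16% of all tested genes. Both mutant libraries were above both controls for 15 of the 23, against 28.9% of all tested genes. The gene that rose was cyb-3, a B-type cyclin of oocyte and embryo divisions, at 323.61 and 248.12 FPKM in the controls and at 481.08 and 456.35 FPKM in the mutants (0.72, SE 0.16, limma adjusted p = 0.0423). This call was lost on leaving out 3 of the 4 libraries in turn, with a limma adjusted p of 0.258 without control replicate 2, 0.214 without mutant replicate 1 and 0.135 without mutant replicate 2, but 0.0358 without control replicate 1. zif-1, which encodes the adaptor that marks CCCH proteins for destruction in somatic cells, was at 45.21 and 47.84 FPKM in the controls and at 84.45 and 58.57 FPKM in the mutants (0.59, limma adjusted p = 0.125). par-2, a posterior polarity gene, had a log2 fold change of 0.58 (limma adjusted p = 0.0835).

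The last list held 12 maternal mRNAs reported to be controlled by at least 1 of the 10 proteins, zif-1 among them. None passed by limma, and the median log2 fold change was 0.46. Of the 12, 8 were higher at an unadjusted p under 0.05, against 8.16% of all tested genes. Both mutant libraries were above both controls for 11 of the 12, all but set-6, against 28.9% of all tested genes. nos-2, a germline Nanos gene, was at 67.88 and 55.87 FPKM in the controls and at 101.6 and 84.71 FPKM in the mutants (0.58, limma adjusted p = 0.0744). cdc-25.3, a phosphatase gene under OMA and LIN-41 control, was at 19.65 and 15.28 FPKM in the controls and at 33.25 and 22.59 FPKM in the mutants (0.63, limma adjusted p = 0.169). Its log2 fold change was 0.36 without mutant replicate 1 and 0.90 without mutant replicate 2. The summed level of the 12 genes relative to that of the 10 RNA-binding protein genes was 0.236 and 0.285 in the controls and 0.253 and 0.228 in the mutants, so the strains overlapped in this ratio.

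**Figure D4:**
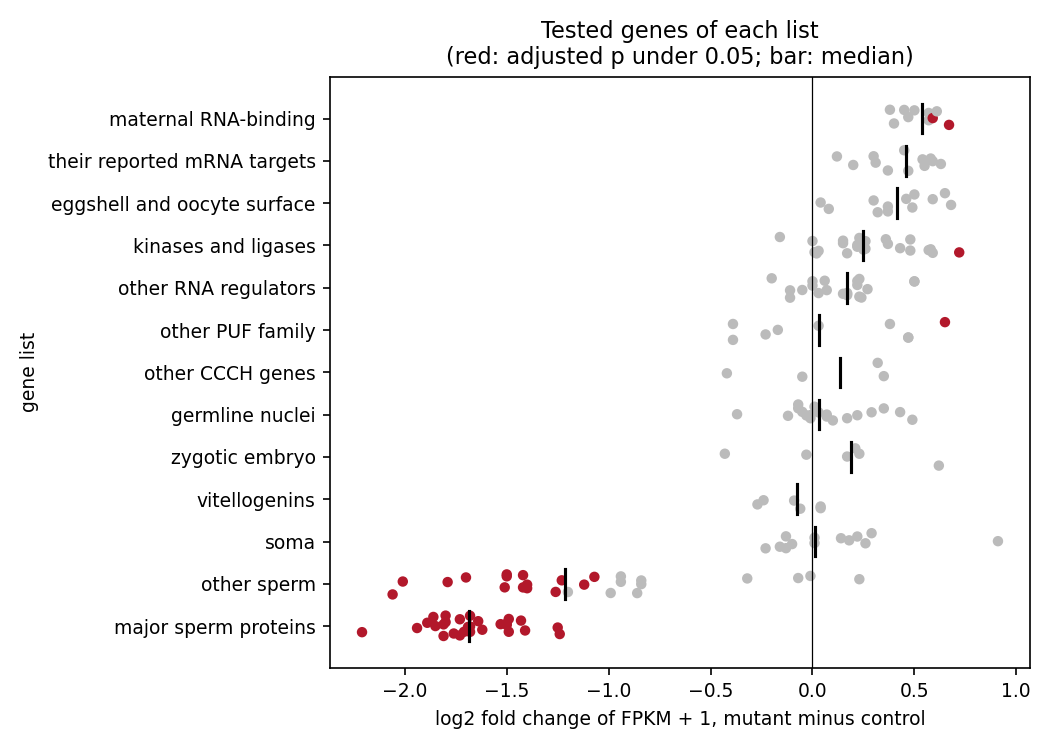
Log2 fold change of FPKM + 1, mutant minus control (horizontal axis), of every tested gene of each list (vertical axis, points spread at random within a list), with bars at the medians and red for genes past the threshold. The RNA-binding protein genes centre at 0.54, their reported targets at 0.46 and eggshell genes at 0.42. The other germline genes, labelled germline nuclei, centre at 0.03 and the sperm lists at -1.22 and -1.69.

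Markers of the cells in the animal moved in different ways beside these genes. Among 12 eggshell and oocyte surface genes none passed by limma, and their median log2 fold change was 0.42. Of the 12, 7 were higher at an unadjusted p under 0.05, against 8.16% of all tested genes. cbd-1, an eggshell gene with the largest change of the 12, was at 296.92 and 215.19 FPKM in the controls and at 430.43 and 381.39 FPKM in the mutants (0.68, limma adjusted p = 0.0738). Both mutant libraries were above both controls for 9 of the 12, against 28.9% of all tested genes. perm-2 and perm-4, the most abundant of the list, overlapped between the strains (log2 fold changes 0.04 and 0.08). The sum over the 12 was 4812 and 4100 FPKM in the controls and 5239 and 5738 FPKM in the mutants, and control replicate 1 was above control replicate 2 for all 12. In contrast, 19 other germline genes summed to 1188 and 1160 FPKM in the controls and to 1202 and 1242 FPKM in the mutants. Their median was 0.03 and none passed the threshold by limma. Of these, 2 were higher and syp-1 was lower at an unadjusted p under 0.05, against 8.16% and 13.5% of all tested genes. The list was meant for germline nuclei outside the late oocyte. It also holds the P granule genes pgl-1, pgl-3, glh-1, glh-2 and glh-4, so it is no clean marker of such nuclei. Relative to the sum of these 19 genes, the 10 RNA-binding protein genes stood at 1.94 and 1.63 in the controls and at 2.64 and 2.38 in the mutants. The 6 vitellogenins and the somatic markers, 13 of 16 tested, had medians of -0.08 and 0.01 with none past the threshold by limma. Of these, 0 and 1 were higher at an unadjusted p under 0.05, against 8.16% of all tested genes. The 1 was elt-2, a gut marker, at 6.38 and 3.94 FPKM in the controls and at 9.55 and 11.13 FPKM in the mutants (0.91, SE 0.27, limma adjusted p = 0.0967).

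Sperm genes moved the other way. All 28 tested major sperm protein genes fell, against 7.3% of all tested genes. Reads of similar copies may have been split between them, so these are not 28 separate results. The sum over all 30 major sperm protein genes was 11034 and 10562 FPKM in the controls and 2819 and 4312 FPKM in the mutants. Of 26 other tested sperm genes 15 fell, against the same 7.3%. FPKM values of a library share a denominator, all its mapped fragments, but have no fixed sum. Over all genes they summed to 786436 and 780720 in the controls and to 741399 and 770579 in mutant replicates 1 and 2. The median log2 fold change of the 10 genes was 0.57 when each library was rescaled to its sum without major sperm proteins and vitellogenins (4 called), 0.48 with median-of-ratios scaling and 0.46 with upper-quartile scaling (0 called by limma with either, 8 and 7 at an unadjusted p under 0.05). Of 20 genes listed as first transcribed in the embryo, 6 were tested and none passed by limma (median log2 fold change 0.19, from -0.43 to 0.62). All 20 summed to 110.1 and 115.0 FPKM in the controls and to 129.1 and 116.7 FPKM in mutant replicates 1 and 2. Most of this sum came from lin-26, elt-3, tbx-9 and elt-7, at 47.79, 22.93, 21.78 and 12.78 FPKM in control replicate 1. Whether their RNA came from embryos or from adult tissue was not tested, so the sum is no clean marker of embryos. The 14 below the filter were near 0. They summed to 1.21 and 1.70 FPKM in the controls, 8.85 FPKM in mutant replicate 1 and 2.28 FPKM in mutant replicate 2. Mutant replicate 1 alone had any of the 14 above 1 FPKM, with 4 such genes, among them pes-10 at 1.6 FPKM and vet-6 at 2.61 FPKM, which were at 0.16 FPKM or less in the other libraries. Without mutant replicate 1 the median log2 fold change of the 10 RNA-binding protein genes was 0.50.

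Genes outside the 10 were also ranked by likeness to their average profile, by root mean square distance of centred log2(FPKM + 1) values over the 4 libraries, among 2584 genes with a mean of at least 50 FPKM. The 10 nearest were F41G3.6, zip-2, W06B4.1, R05H5.3, puf-6, egg-1, mcm-3, cpg-2, F18A1.7 and ptr-2, at distances of 0.009 to 0.041, against a median of 0.264 over the genes compared. F41G3.6, the nearest, was at 56.61 and 46.53 FPKM in the controls and at 75.26 and 72.28 FPKM in the mutants. egg-1 and cpg-2 encode an oocyte surface receptor and an eggshell protein, and mcm-3 a subunit of the replicative helicase. With 4 libraries this likeness is a description only.

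**Figure D5:**
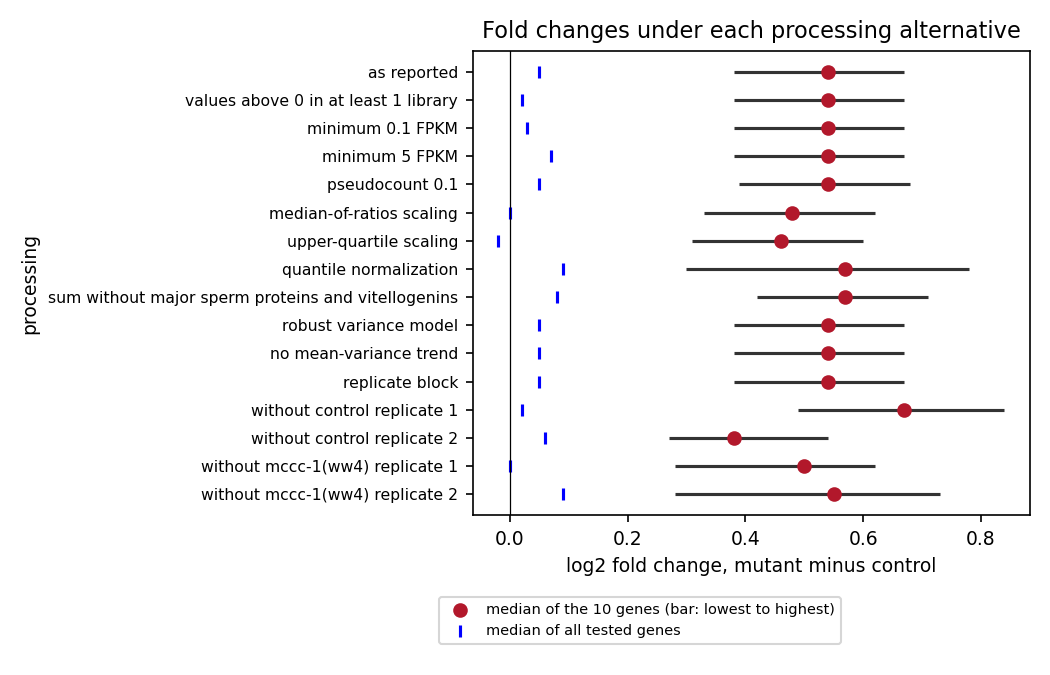
Log2 fold change, mutant minus control (horizontal axis), under each processing alternative (vertical axis), with points at the median of the 10 genes, bars from their lowest to their highest value, and blue ticks at the median of all tested genes. All 10 stay above 0 under every alternative shown, with medians from 0.38 without control replicate 2 to 0.67 without control replicate 1.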

How the data were processed

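Whole-animal RNA-seq values of 4 libraries were used, 2 per strain. Per the file headers, the deposited values are FPKM per gene, 1 file per library. Per the submitters' processing notes the authors used Bowtie2 and RSEM; versions, build, annotation and strandedness were not given in the sources used here. Because RSEM apportions ambiguous reads statistically, close paralogues have uncertain values. Symbols were matched by WormBase identifier (18776 of 20535 genes); coordinates are from the Ensembl WBcel235 annotation.

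The 13091 genes that reached 1 FPKM in 2 or more libraries entered a limma fit (version 3.58.1, R 4.3.3) of log2(FPKM + 1) on group only, with a mean-variance trend (2 residual and 4.65 prior degrees of freedom). The fold change understates that of low genes. The filter, members, gene lists and alternatives were chosen with earlier results of these data known. When a library was left out, the tested genes stayed the same, and a lone library was assumed to vary like the other group. Paralogue ratios were tested with scipy 1.17.1.

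All members are named. From each list, genes past the threshold are named, up to 5, or else the largest changes, up to 3; for the marker lists mostly sums are given. fbf-1, fbf-2, puf-3, puf-8, puf-9, puf-12, perm-2, perm-4, elt-7, tbx-9, set-6, pes-10, vet-6 and snr-6 were named after their values were seen. Total depth was not stated and was estimated from the spacing of low values of genes with 1 transcript of 950 to 1050 nt.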

Additional observations from a re-analysis of the deposited data

How the results depend on the processing

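All 10 genes kept a positive log2 fold change under each of the 15 alternatives, but the number past the threshold was fragile. It was 2 as reported, 0 with no filter beyond a value above 0, 0 with a minimum of 0.1 FPKM, 0 with median-of-ratios scaling, 0 with upper-quartile scaling, 0 with no mean-variance trend, 1 (spn-4) with a pseudocount of 0.1 and 1 (spn-4) with quantile normalization. It was 4 (mex-1, mex-6, pos-1 and spn-4) with libraries rescaled to their sum without major sperm proteins and vitellogenins, and 0 to 1 without 1 library, the 1 being oma-2 without control replicate 1. It stayed at 2, the same genes, with a minimum of 5 FPKM and with a robust variance model. Over all genes, 4 were called with a minimum of 0.1 FPKM and 1095 with 1 FPKM.

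The labels do not say that a replicate number marks a batch, and the replicate differences of the strains correlated at 0.176 over the tested genes. With the replicate number as a block, 2 members were called, the same genes; the paralogue differences of -0.19 and -0.13 cannot move under a block in this balanced design. Without 1 library they ranged from -0.35 to -0.03 (oma-1 over oma-2) and from -0.15 to -0.11 (mex-5 over mex-6). Under the block 2 genes of the kinase and ligase list (chs-1 and cyb-3, neither a kinase nor a ligase gene) and 2 of the mRNA targets (cdc-25.3 and nos-2) were called, against 1 and 0. Over all tested genes the block gave 1803 calls, against 1095 without it. The call in the PUF list was lost (0) with a minimum of 0.1 FPKM, median-of-ratios scaling and quantile normalization, and ranged from 0 to 0 without 1 library. In the kinase and ligase list the count was 0 with a minimum of 0.1 FPKM and with median-of-ratios scaling, and 0 to 1 without 1 library. The cause of these losses was not tested.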
